A study of Homo sapiens with 6 samples.

Results

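The G1 cyclins, their kinases and inhibitors, and the transcription factor E2F1 were followed in prostate cancer cells that overexpressed either of 2 microRNAs (miRNAs, short RNAs that lower the output of the messenger RNAs they pair with). The set holds 10 genes, CCND1, CCND2, CCND3, CCNE1, CCNE2, CDK2, CDK4, CDKN1B, CDKN2A and E2F1, and was put together by the roles of its genes, with earlier results of these data known. All probes whose gene name in the array files was one of these were taken, which gave 13 of the 58201 gene probes on the array, since CCNE2, CDKN1B and CDKN2A each had 2. The cells came from 22RV1, an established prostate cancer line of human origin labelled as positive for SPINK1, and were made stable with lentiviral vectors and kept in puromycin. The control cells carried pLemiR-RFP, a vector for a red fluorescent protein, and the other lines carried pLemiR-338-5p or pLemiR-421. Each of 6 Agilent 2-colour arrays set the RNA of a miRNA line against RNA of the control cells. The miRNA line was in the dye Cy5 and the control in the dye Cy3 on all of them, with no dye swap. A shift shared by both lines thus cannot be told apart from a dye bias or a trait of the control cells. There were 3 arrays for miR-338-5p (replicates 1, 2 and 3) and 3 for miR-421 (replicates 1 and 2, and a sample named a pool, whose contents the labels do not give). The labels do not say whether replicates were separate cultures or whether 1 control culture served all arrays. The p-values thus measured the spread between these samples only, and left out that of the control if its culture was shared. The level of either miRNA in the cells was not analysed here.

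Passage from G1 into S phase is driven by cyclins that bind and switch on cyclin-dependent kinases. D-type cyclins (CCND1, CCND2, CCND3) with CDK4 begin to phosphorylate the retinoblastoma protein, and E-type cyclins (CCNE1, CCNE2) with CDK2 complete it, which frees E2F transcription factors such as E2F1 to switch on the genes of DNA replication, CCNE1 and E2F1 itself among them. CDKN1B encodes p27, an inhibitor mainly of cyclin E with CDK2, and CDKN2A encodes p16, an inhibitor of CDK4, and, from another reading frame, ARF, a stabiliser of p53. The p27 protein is removed at the entry to S phase by the ubiquitin ligase that SKP2 directs, so the messenger RNA measured here is only one of the layers at which it is controlled.

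A miRNA pairs with its targets mainly through the seed, bases 2 to 8 from its 5′ end. The mature sequences of the overexpressed miRNAs, from RefSeq (GRCh38.p14), are shown 5′ to 3′ with the seed in capitals, because the seed is the part that decides which messages each can pair with.
hsa-miR-338-5p: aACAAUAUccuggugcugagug
hsa-miR-421: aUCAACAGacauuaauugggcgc
The seeds differ, so the lines did not share a seed. The first lies at chr17:81125923-81125944 and the second at chrX:74218392-74218414, both on the minus strand. The seed matches, ATATTGT and CTGTTGA, occurred 0 times in the 13 probe sequences of the set. Each probe covers only 60 bases, so this count cannot show whether the transcripts hold sites, and whole transcripts were not searched.

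A value below is the log2 ratio of Cy5 over Cy3 after background correction and loess normalization within each array, so that 0 is the control level, 1 is a doubling and a negative value is below the control. Group values are means of arrays with the SD over n = 3 and the standard error (SE) of the limma fit, and p-values are limma's, two-sided and adjusted by Benjamini-Hochberg over all probes tested. A gene was called at an adjusted p under 0.05. Where a gene had more than 1 probe, the brightest (probe 1) stood for it. Between 44.3% and 47.9% of gene spots were well above background in Cy3 and between 41.9% and 48.3% in Cy5, and 0 spots were saturated. In Cy3, the control dye, the share was 47.3% to 47.9% on miR-338-5p arrays and 44.3% to 44.4% on miR-421 arrays. In Cy5 the lowest share, 41.9%, was that of miR-421 array 1, beside 47.8% on the pool and 47.5% on array 2. The part of this in the results was not tested. The 9 prostate epithelial markers checked were well above background in both dyes on all 6 arrays. Of 10 markers of fibroblasts, leukocytes and endothelium, 7 were also well above background in Cy3 on 6 arrays, and 3 (COL3A1, FAP and PECAM1) were on 0. The part of these markers in the results was not tested.

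Of the set, 9 genes with 12 probes could be tested. CDKN1B rose and CCNE1 fell in the miR-338-5p line. CCNE2 and CDKN1B fell and CDKN2A rose in the miR-421 line. These were 2 of 9 genes called in the miR-338-5p line, where 9% of all tested probes were called, and 3 of 9 in the miR-421 line, where 21.6% were. By direction, 3.79% of all probes were called higher and 5.22% lower in the miR-338-5p line, and 9.19% higher and 12.5% lower in the miR-421 line. The other 5 tested genes, CCND1, CCND3, CDK2, CDK4 and E2F1, were called in neither line. The median over the 9 genes was -0.01 in the miR-338-5p line and -0.19 in the miR-421 line, beside 0 and 0.01 over the 21697 genes tested.

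**Figure D1:**
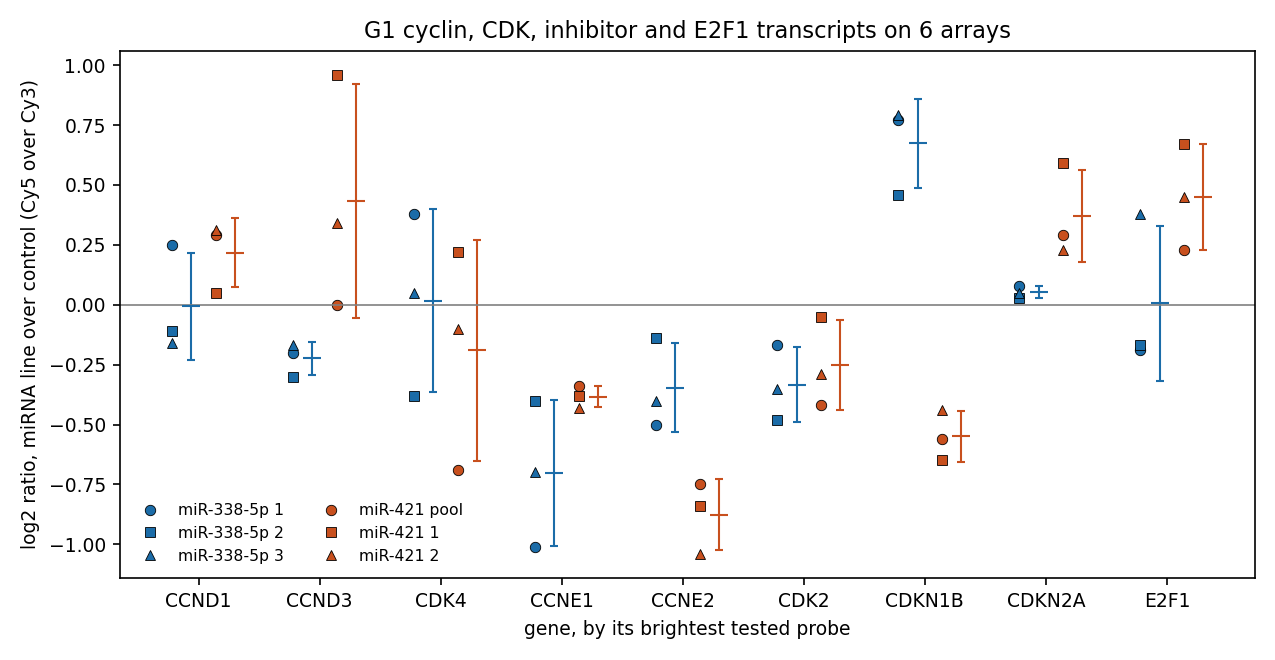
Log2 ratio of Cy5 (miRNA line) over Cy3 (control) for the tested genes of the set, 1 point per array, with a bar at the mean of 3 arrays, an error bar of 1 SD and 0 as the control level. CDKN1B lies above 0 on every miR-338-5p array and below 0 on every miR-421 array, and CCNE1 and CCNE2 lie below 0 on all 6.

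CDKN1B, the gene of the inhibitor p27, moved in opposite directions in the lines. Probe 1 (NM_004064, chr12:12874940-12874999 in hg19, plus strand) read 0.77, 0.46 and 0.79 on miR-338-5p arrays 1, 2 and 3. It read -0.56, -0.65 and -0.44 on the miR-421 pool and arrays 1 and 2. The groups lay on opposite sides of the control and did not overlap. The mean was 0.67 ± 0.19 (SD, n = 3; SE 0.08) in the miR-338-5p line, 1.60-fold the control, with a limma adjusted p of 0.014. It was -0.55 ± 0.11 (SD, n = 3; SE 0.08) in the miR-421 line, 31.6% below the control, with a limma adjusted p of 0.012.

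The same can be read from the spot brightness before normalization. Less local background, probe 1 gave 1390, 1360 and 1120 intensity units in the control dye of miR-338-5p arrays 1, 2 and 3 and 1980, 1570 and 1790 in the dye of the miRNA line. On the miR-421 pool and arrays 1 and 2, the control dye gave 1140, 978 and 1070 units and the miRNA line 816, 414 and 834. The control signals of the arrays differed less than those of the miRNA lines, and the miRNA line was the brighter dye on every miR-338-5p array and the dimmer on every miR-421 array. The Cy5 signal of 414 on miR-421 array 1 was the lowest of the 6, whereas its normalized ratio was close to those of the other miR-421 arrays.

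**Figure D2:**
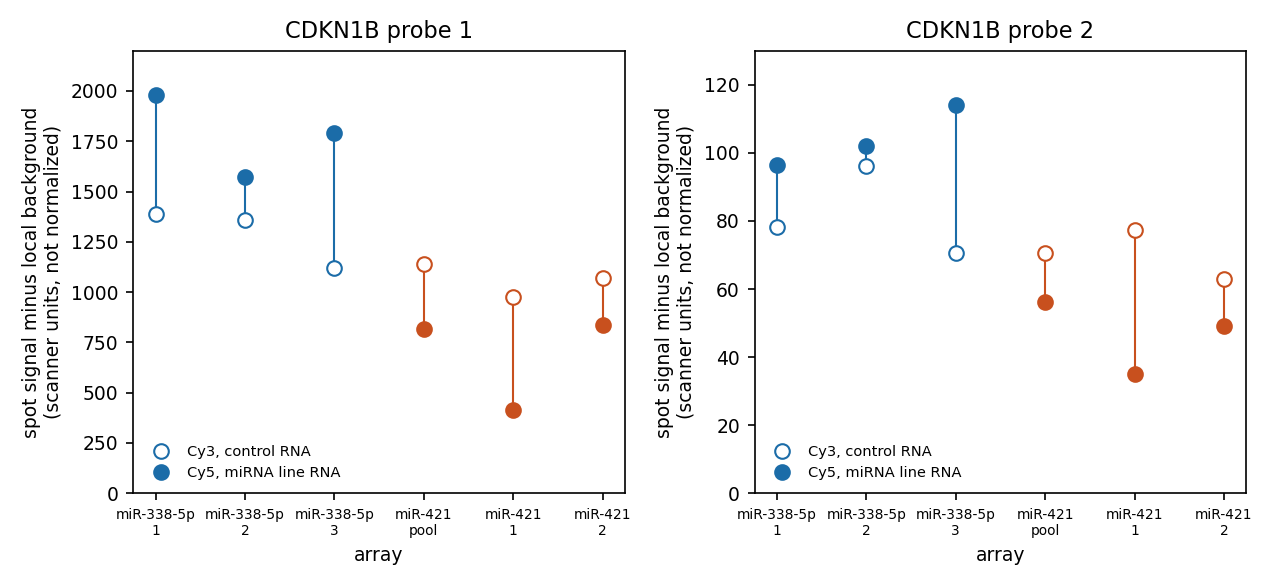
Net brightness (spot mean less local background, in intensity units) of both CDKN1B probes in the control dye and in the dye of the miRNA line on each array. The miRNA line is brighter than the control on the 3 miR-338-5p arrays and dimmer on the 3 miR-421 arrays for both probes.

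A second CDKN1B probe (chr12:12871119-12871178 in hg19, plus strand) read another stretch of the transcript, shown here because it gives a second reading of the gene from the same RNA on the same arrays.
CDKN1B probe 2: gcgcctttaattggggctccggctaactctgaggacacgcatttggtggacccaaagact
It was dimmer, with 63 to 96.2 units net in the control dye. It read 0.42, 0.33 and 0.60 on the miR-338-5p arrays and -0.19, -0.23 and -0.24 on the miR-421 pool and arrays 1 and 2, again on opposite sides of 0. The limma adjusted p was 0.019 for its mean of 0.45 ± 0.14 (SD, n = 3) in the miR-338-5p line. It was 0.060, and so not called, for its mean of -0.22 ± 0.03 (SD, n = 3) in the miR-421 line. An offset of 50 units added in the background correction shrinks ratios of dim spots, and by plain subtraction of the background the means of probe 2 were 0.76 and -0.35.

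The CDKN1B calls rested on few arrays. The call in the miR-338-5p line was lost without its replicate 1 (limma adjusted p = 0.059) or 3 (0.065), and that in the miR-421 line without its replicate 2 (0.059), while the means then stayed at 0.63, 0.62 and -0.60. With each array centred on its median in place of loess, neither mean was called, at 0.52 and -0.62.

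CDKN2A, the gene of p16 and ARF, rose in the miR-421 line. Probe 1 (NM_058197, chr9:21968039-21968098 in hg19, minus strand) read 0.29, 0.59 and 0.23 on the miR-421 pool and arrays 1 and 2, and 0.08, 0.03 and 0.05 on the miR-338-5p arrays. Array 1 of miR-421 was the highest, and the groups did not overlap. The mean in the miR-421 line was 0.37 ± 0.19 (SD, n = 3; SE 0.08), 1.29-fold the control, with a limma adjusted p of 0.025. In the miR-338-5p line it was 0.05 ± 0.03 (SD, n = 3), with a limma adjusted p of 0.73.

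CDKN2A probe 2 (NM_000077, chr9:21970901-21970960 in hg19, minus strand) gave the same order. It read 0.29, 0.64 and 0.32 on the miR-421 pool and arrays 1 and 2, against -0.04, -0.01 and 0.08 on the miR-338-5p arrays. Its mean in the miR-421 line was 0.42 ± 0.19 (SD, n = 3), 1.34-fold the control, with a limma adjusted p of 0.020. The array's annotation lists transcripts of both p16 and ARF for each probe, so their messages cannot be told apart. The call of probe 1 was lost without any single miR-421 array, with limma adjusted p of 0.062 without the pool, 0.054 without replicate 1 and 0.071 without replicate 2, while probe 2 stayed called without the pool (0.042) or replicate 1 (0.046) but not without replicate 2 (0.078). The call of probe 1 was also lost with plain background subtraction (limma adjusted p = 0.11), with a trended and robust variance (0.069), with the group's own arrays only (0.076), with the ratio of the image software (0.14) and with that of the authors' table (0.086).

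The E-type cyclins read below the control on all 6 arrays, and each was called in 1 line. CCNE1 (NM_001238, chr19:30315106-30315165 in hg19, plus strand), a partner of CDK2, read -1.01, -0.40 and -0.70 on miR-338-5p arrays 1, 2 and 3. On the miR-421 pool and arrays 1 and 2 it read -0.34, -0.38 and -0.43. The miR-338-5p values spread widely and overlapped with the narrow miR-421 range.

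The CCNE1 mean was -0.70 ± 0.31 (SD, n = 3; SE 0.11) in the miR-338-5p line, 38.6% below the control, with a limma adjusted p of 0.023. In the miR-421 line it was -0.38 ± 0.05 (SD, n = 3; SE 0.11), 23.4% below, with a limma adjusted p of 0.057, just outside the threshold. It was inside without miR-338-5p replicate 1 (limma adjusted p = 0.035) or 2 (0.029) and with the group's own arrays only (0.031). Net control signals were 860, 839 and 779 units on miR-338-5p arrays 1, 2 and 3, against 317, 486 and 396 units in the miRNA line. Both dyes were well above background on all 6 arrays. The miR-338-5p call was lost without its replicate 1 (mean -0.55, limma adjusted p = 0.058) or 3 (0.091), and also when replicate 2 of miR-421 (0.058) or its pool (0.051) was left out, which served only to estimate the spread.

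CCNE2, the other E-type cyclin, fell in the miR-421 line. Probe 1 (NM_057749) read -0.75, -0.84 and -1.04 on the miR-421 pool and arrays 1 and 2, and -0.50, -0.14 and -0.40 on miR-338-5p arrays 1, 2 and 3. All were below 0 and the groups did not overlap, with the miR-421 arrays lower. The mean was -0.88 ± 0.15 (SD, n = 3; SE 0.09) in the miR-421 line, 45.5% below the control, with a limma adjusted p of 0.0052. In the miR-338-5p line it was -0.35 ± 0.18 (SD, n = 3; SE 0.09), 21.4% below, with a limma adjusted p of 0.068.

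The fall of CCNE2 in the miR-421 line was called under each of the 16 alternatives run, with means from -1.0 to -0.52. CCNE2 probe 2 was dim, between 16 and 24 units net in the control dye. Its means were -0.16 ± 0.03 (SD, n = 3; limma adjusted p = 0.072) in the miR-421 line and -0.11 ± 0.06 (SD, n = 3; 0.21) in the miR-338-5p line. With the background plainly subtracted they were -0.85 and -0.49, with limma adjusted p of 0.022 and 0.15.

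CDK2 (NM_001798, chr12:56365789-56365848 in hg19, plus strand), the kinase these cyclins bind, read -0.17, -0.48 and -0.35 on the miR-338-5p arrays. It read -0.42, -0.05 and -0.29 on the miR-421 pool and arrays 1 and 2. All 6 values were below 0 and the groups overlapped. Neither mean was called, at -0.33 ± 0.16 (SD, n = 3; limma adjusted p = 0.081) and -0.25 ± 0.19 (SD, n = 3; 0.10). With median centring both were called, at -0.51 (0.038) and -0.36 (0.047).

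Of the D-type cyclins and CDK4, none was called in either line. CCND1 (NM_053056, chr11:69468233-69468292 in hg19, plus strand) read 0.25, -0.11 and -0.16 on the miR-338-5p arrays and 0.29, 0.05 and 0.31 on the miR-421 pool and arrays 1 and 2. The miR-338-5p arrays straddled 0, and their highest value lay within the miR-421 range. The means were -0.01 ± 0.22 (SD, n = 3; limma adjusted p = 0.98) and 0.22 ± 0.14 (SD, n = 3; 0.17).

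CCND3 (NM_001760, chr6:41903193-41903252 in hg19, minus strand) read -0.20, -0.30 and -0.17 on the miR-338-5p arrays and 0.00, 0.96 and 0.34 on the miR-421 pool and arrays 1 and 2. The groups did not overlap, but the miR-421 values ranged from the control level to almost a doubling. The means were -0.22 ± 0.07 (SD, n = 3; limma adjusted p = 0.46) and 0.43 ± 0.48 (SD, n = 3; 0.12). CCND2 (NM_001759, chr12:4414040-4414099 in hg19, plus strand) stayed near background on each of the 6 arrays, in Cy3 and Cy5 alike. Its net signals lay between -0.8 and 4.95 units, so it was not tested and no fold is given.

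CDK4 (NM_000075, chr12:58142263-58142322 in hg19, minus strand), the kinase of the D-type cyclins that p16 inhibits, read 0.38, -0.38 and 0.05 on the miR-338-5p arrays and -0.69, 0.22 and -0.10 on the miR-421 pool and arrays 1 and 2. The values crossed 0 within both groups. The means were 0.02 ± 0.38 (SD, n = 3; limma adjusted p = 0.97) and -0.19 ± 0.46 (SD, n = 3; 0.55).

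E2F1 (NM_005225, chr20:32263989-32264048 in hg19, minus strand), the transcription factor at the end of this pathway, was called in neither line. It read -0.19, -0.17 and 0.38 on miR-338-5p arrays 1, 2 and 3, and 0.23, 0.67 and 0.45 on the miR-421 pool and arrays 1 and 2. All miR-421 arrays were above 0, whereas in the miR-338-5p group only replicate 3 was, and it lay within the miR-421 range. The means were 0.01 ± 0.32 (SD, n = 3; SE 0.14; limma adjusted p = 0.98) and 0.45 ± 0.22 (SD, n = 3; SE 0.14; 0.064). Without miR-338-5p replicate 3 the miR-421 mean was called, at a limma adjusted p of 0.036.

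E2F1 and CCND1 were each printed on 10 spots of every array, which separates the error of reading a spot from the spread between samples. For E2F1, the SD over the spots of an array was 0.04 to 0.084 on miR-338-5p arrays and 0.045 to 0.076 on miR-421 arrays, against SDs between arrays of 0.32 and 0.22. On miR-338-5p replicate 3 the E2F1 spots ran from 0.33 to 0.43, and on replicates 1 and 2 none was above -0.02. All spots of replicate 3 thus read higher than all spots of the other miR-338-5p arrays. For CCND1, spot SDs were 0.054 to 0.073 and 0.039 to 0.076, against 0.22 and 0.14 between arrays. Sample differences thus exceeded reading error for both genes, and whether they lie in cultures, labelling or hybridization was not tested.

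**Figure D3:**
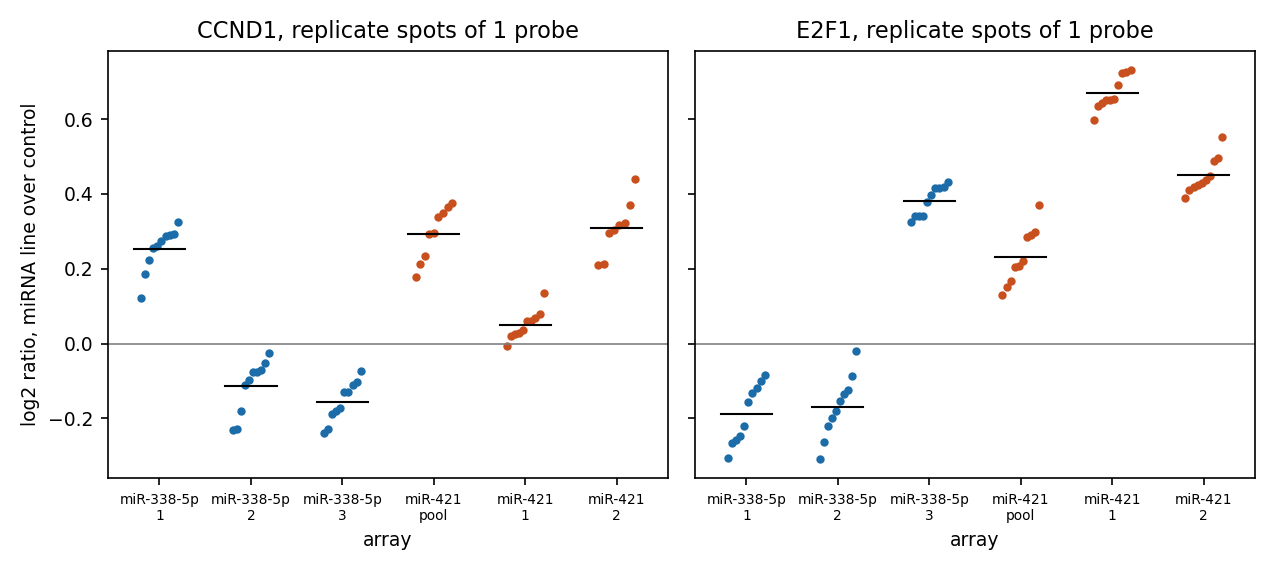
Log2 ratio of Cy5 over Cy3 on each replicate spot of the E2F1 and CCND1 probes, by array, with a bar at the array's mean. Spots of 1 array lie close together, while arrays of 1 group lie apart, as for E2F1 on miR-338-5p replicate 3 (0.38) against replicates 1 and 2 (-0.19 and -0.17).

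E2F1 is itself a gene with E2F sites in its promoter. Promoters of 300 bases, from 250 before to 50 after a start site, were searched on both strands for TTTGGCGC and TTTCGCGC, forms of the E2F site that can overlap on opposite strands. Of the 9 promoter entries found for 6 genes of the set (CCND3, CCNE1, CDK4, CDKN1B, CDKN2A and E2F1), 1 held a match, that of E2F1, beginning 20 bases before the start site. In all, 403 of 35116 promoters held one, or 1.15%. The promoter of E2F1 is shown beside those of MCM3 and MCM6, parts of the replicative helicase described below, because these 3 hold the motif. MCM3 and MCM6 were picked from the genes that hold it with their values known. The sequences are from RefSeq (GRCh38.p14), at chr20:33686336-33686635, chr6:52284693-52284992 and chr2:135876394-135876693, all on the minus strand and read 5′ to 3′ along the gene, with matches in capitals.
E2F1: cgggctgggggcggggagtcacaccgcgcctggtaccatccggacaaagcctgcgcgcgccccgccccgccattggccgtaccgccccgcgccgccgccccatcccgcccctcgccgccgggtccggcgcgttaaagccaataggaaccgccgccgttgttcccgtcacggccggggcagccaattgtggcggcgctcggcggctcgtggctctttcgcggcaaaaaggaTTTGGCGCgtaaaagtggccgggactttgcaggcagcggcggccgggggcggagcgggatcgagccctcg
MCM3: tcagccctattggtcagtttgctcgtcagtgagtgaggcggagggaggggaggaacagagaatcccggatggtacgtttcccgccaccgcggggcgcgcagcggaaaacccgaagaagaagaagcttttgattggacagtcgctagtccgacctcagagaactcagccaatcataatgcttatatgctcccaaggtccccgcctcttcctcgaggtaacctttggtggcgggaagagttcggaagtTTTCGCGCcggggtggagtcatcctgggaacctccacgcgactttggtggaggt
MCM6: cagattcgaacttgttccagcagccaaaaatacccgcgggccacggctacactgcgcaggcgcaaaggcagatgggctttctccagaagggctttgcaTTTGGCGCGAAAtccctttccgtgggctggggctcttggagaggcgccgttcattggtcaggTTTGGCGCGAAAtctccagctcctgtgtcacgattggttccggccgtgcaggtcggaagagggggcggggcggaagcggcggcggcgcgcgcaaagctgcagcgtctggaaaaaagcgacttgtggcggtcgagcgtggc
In MCM6 the 4 matches form overlapping pairs, at 2 places. A match describes these letters only, and binding was not measured.

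The genes whose log2 ratios were nearest to those of E2F1 over the 6 arrays, by root mean square difference among 21696 other genes, were RAB1B (0.073), ATP6V0B (0.096), FLII (0.11), RNF167 (0.12) and GPR137 (0.12).

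The lines were also compared with each other, as the miR-338-5p mean less the miR-421 mean, in which a dye bias or a control level common to the arrays cancels. In this comparison 13 of 27489 probes were called, or 0.0473% (0.0109% higher and 0.0364% lower in the miR-338-5p line), and no gene of the set was among them by limma. At an unadjusted p under 0.05, 3753 probes passed. The CDKN1B difference was 1.22 (SE 0.12) for probe 1, with an unadjusted limma p of 4.8e-05 and an adjusted p of 0.056. For probe 2 it was 0.67 (SE 0.09), with an unadjusted limma p of 0.00032 and an adjusted p of 0.079. The probe 1 difference passed the threshold with a trended and robust variance (limma adjusted p = 0.039) and with no background correction (0.040). The probe 2 difference passed with neither (limma adjusted p = 0.086 and 0.071).

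CDKN1B lay above 0 on every miR-338-5p array and below 0 on every miR-421 array by both probes, a pattern held by 1.58% of all probes, and 3.53% lay on opposite sides of 0 in either direction. The groups did not overlap for 4 of the 9 tested genes, CCND3, CCNE2, CDKN1B and CDKN2A, beside 19.8% of all probes. The miR-338-5p arrays were above for CCNE2 and CDKN1B, as for 10.1% of probes, and below for CCND3 and CDKN2A, as for 9.73%. The differences of the other 3 were -0.66 (SE 0.24) for CCND3, 0.53 (SE 0.13) for CCNE2 and -0.32 (SE 0.11) for CDKN2A, with limma adjusted p of 0.32, 0.19 and 0.30. For genes whose groups overlapped, the differences were -0.22 (SE 0.14) for CCND1, -0.32 (SE 0.16) for CCNE1, -0.08 (SE 0.13) for CDK2, 0.21 (SE 0.29) for CDK4 and -0.44 (SE 0.19) for E2F1. A miss of the threshold with 3 arrays a group does not show that these genes were alike in the lines.

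The other genes of the pathway came from lists written by function. By the brightest probe of each gene, 2 of 11 other G1 kinases, phosphatases and ubiquitin ligase parts fell and none rose in the miR-338-5p line, while 7 fell and none rose in the miR-421 line. Of all probes, 5.22% were called lower in the miR-338-5p line and 12.5% in the miR-421 line. All 11 means of these probes were below 0 in the miR-421 line, with a median of -0.49 beside 0.01 over all genes. CDK3, a kinase of the same family, was read differently by its other probes, at 0.42 (limma adjusted p = 0.014, called higher) and 0.19 (0.084) in the miR-421 line, against -0.39 (0.090) for the brightest. Those called there included CDK6, the other kinase of D-type cyclins, which read -1.19, -1.68 and -1.23 on the miR-421 pool and arrays 1 and 2. Its mean was -1.37 ± 0.27 (SD, n = 3; limma adjusted p = 0.0096), and in the miR-338-5p line -0.71 ± 0.49 (SD, n = 3; 0.076).

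SKP2, which directs the ligase for p27, fell in both lines, to -0.66 ± 0.12 (SD, n = 3; limma adjusted p = 0.021) with miR-338-5p and -0.55 ± 0.24 (SD, n = 3; 0.018) with miR-421. SKP1, the adaptor of that ligase, fell to -0.68 ± 0.11 (SD, n = 3; 0.0053) with miR-421. CDC25A, a phosphatase that activates CDK2, fell in both, to -0.48 ± 0.06 (SD, n = 3; limma adjusted p = 0.042) and -0.49 ± 0.27 (SD, n = 3; 0.024). Without miR-421 replicate 2 the count in the miR-421 line was 1, with the median at -0.46, and calls over all probes went from 5950 to 629. The 2 in the miR-338-5p line became 0 when any array of that line was left out.

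CDK7, the kinase that activates other cyclin-dependent kinases, shared the signs of CDKN1B. It read 0.47, 0.14 and 0.18 on the miR-338-5p arrays and -0.55, -0.36 and -0.54 on the miR-421 pool and arrays 1 and 2, so the groups lay on opposite sides of 0. It was called in the miR-421 line, at a mean of -0.48 (limma adjusted p = 0.015), and not in the miR-338-5p line, at 0.26 (0.11). CDK7, and MCM3 below, lie outside the rule by which list genes were named and were chosen after their values were seen.

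Of 12 other E2F, DP and pocket protein genes, 1 fell in the miR-338-5p line and 2 in the miR-421 line, near the 5.22% and 12.5% of all probes called lower. E2F3, an activator of the same class as E2F1, fell in both. It read -0.83, -1.70 and -1.30 on the miR-338-5p arrays and -1.20, -2.24 and -1.11 on the miR-421 pool and arrays 1 and 2. All were well below the control and the groups overlapped. The means were -1.28 ± 0.44 (SD, n = 3; limma adjusted p = 0.039) and -1.51 ± 0.63 (SD, n = 3; 0.015). E2F7, a repressor of E2F targets, fell in the miR-421 line, to -1.0 ± 0.57 (SD, n = 3; limma adjusted p = 0.025). Without miR-421 replicate 2 none of these was called, and the call in the miR-338-5p line was lost when any array of that line, replicate 2 of miR-421 or its pool was left out.

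Of 5 other CDK inhibitors, CDKN2B was not tested, and 1 of the remaining 4 was called, in the miR-421 line. In that line 9.19% of all probes were called higher and 12.5% lower. CDKN1A, the gene of p21, rose in the miR-421 line. It read 0.27, 1.25 and 0.68 on the pool and arrays 1 and 2, against 0.05, 0.06 and 0.18 on the miR-338-5p arrays. The miR-421 values were all higher, with array 1 the highest, as for CDKN2A. The mean was 0.73 ± 0.49 (SD, n = 3; limma adjusted p = 0.033), and the call was lost without either numbered miR-421 replicate and without miR-338-5p replicate 1 or 3.

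Of 17 E2F target genes of S phase entry, 6 fell and none rose in the miR-338-5p line, and 5 fell and 2 rose in the miR-421 line. Over all probes, 5.22% fell in the miR-338-5p line, and 12.5% fell and 9.19% rose in the miR-421 line, so the 2 rises were near the share of all probes. All 17 means were below 0 in the miR-338-5p line, with a median of -0.42, and the median was -0.32 in the miR-421 line. MCM6, a helicase subunit, fell in both, to -1.0 ± 0.11 (SD, n = 3; limma adjusted p = 0.022) and -0.87 ± 0.44 (SD, n = 3; 0.017). MCM3, another subunit, did so too, to -0.75 (0.015) and -0.62 (0.013). These falls, like others shared by both lines, cannot be told apart from a dye bias or a trait of the control cells. Of the other targets whose promoters hold the motif, CDC6 and MCM7 were called in neither line, as was E2F1. MCM2, which also holds it, was called only in the miR-421 line, as a rise. The part of the motif in these levels was not tested.

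TYMS, the enzyme that makes thymidylate, fell to -0.80 ± 0.26 (SD, n = 3; limma adjusted p = 0.029) and -0.82 ± 0.31 (SD, n = 3; 0.016). PCNA, the sliding clamp of DNA polymerase, fell to -0.72 ± 0.30 (SD, n = 3; limma adjusted p = 0.031) and -0.92 ± 0.23 (SD, n = 3; 0.0099). CCNA2, the cyclin that follows cyclin E on CDK2, fell to -0.76 ± 0.22 (SD, n = 3; limma adjusted p = 0.013) and -0.80 ± 0.11 (SD, n = 3; 0.0064).

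MCM2 and MCM5 were the 2 targets that rose in the miR-421 line, to 0.74 ± 0.42 (SD, n = 3; limma adjusted p = 0.031) and 0.30 ± 0.16 (SD, n = 3; 0.039). Neither was counted as a rise without the miR-421 pool or replicate 2, without miR-338-5p replicate 1 or 3, with median centring, with no filter on dim probes or with the group's own arrays only. A second MCM5 probe was called in both lines, at -0.27 (limma adjusted p = 0.033) with miR-338-5p and 0.28 (0.018) with miR-421. The same motif search found a match in 5 of 21 promoters of the target list (23.8%), those of CDC6, MCM2, MCM3, MCM6 and MCM7. It found one in 21.4% of promoters of the other E2F, DP and pocket protein genes (E2F2, RBL1 and TFDP1). The share was 15.4% for the mitotic list described below (CDK1), 5% for the G1 kinase list (CDC25A) and 0% for the other inhibitors. The count of 6 falls in the miR-338-5p line became 1 without any of its arrays and 2 without miR-421 replicate 2, and without the latter no target was called in the miR-421 line, where the median was then -0.41 beside -0.32 with all arrays. With median centring or the group's own arrays only, 1 fell in the miR-338-5p line. The count there was 2 with the ratio of the image software, and 3 with plain background subtraction or no filter on dim probes. Medians under these settings lay between -0.53 and -0.42.

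Of 6 mitotic cyclin and kinase genes, 1 fell in the miR-338-5p line, and 1 fell and 1 rose in the miR-421 line. Beside this, 5.22% of all probes were called lower in the miR-338-5p line, and 12.5% lower and 9.19% higher in the miR-421 line. CDK1, the kinase of mitotic entry, fell in both, to -0.59 ± 0.23 (SD, n = 3; limma adjusted p = 0.040) and -1.09 ± 0.25 (SD, n = 3; 0.0061). PLK1, another mitotic kinase, rose in the miR-421 line to 0.43 ± 0.19 (SD, n = 3; limma adjusted p = 0.031), while its other probe read 0.13 (0.45). Its call was lost without either numbered miR-421 replicate, and that of CDK1 in the miR-338-5p line without any array of that line, replicate 2 of miR-421 or its pool. No gene of any list was called in the difference between the lines.

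**Figure D4:**
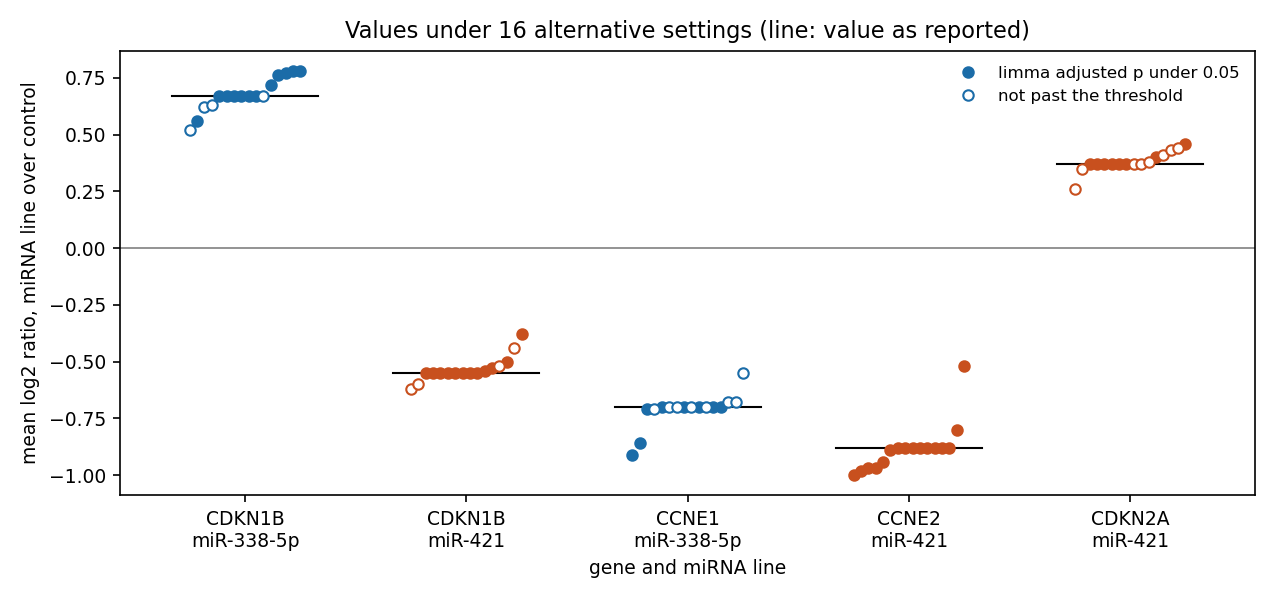
Mean log2 ratio of each called gene of the set under 16 alternatives in processing, with a bar at the value reported and filled points where the limma adjusted p was under 0.05. CCNE2 in the miR-421 line is called throughout, and CDKN1B keeps its sign in both lines (0.52 to 0.78 and -0.62 to -0.38).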

How the data were processed

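Gene expression was measured in 6 samples of 22RV1 cells, 3 per miRNA line, each against control RNA on a 2-colour array. Per the file headers, the authors read the scans with Feature Extraction 11.5.1.1, and probe coordinates are hg19. The deposited intensity values, which carry no normalization, are spot means and medians of the background around the spot. A log10 ratio of the dyes, also deposited, was corrected and dye-normalized by that software, per the file headers. The authors' series table holds log2 ratios, whose normalization is not given in the sources used here. Its columns correlated with the software's log2 ratio at 0.9601 to 0.9726, with medians from -0.016 to 0.103. All arrays shared 1 slide and scan date, so no batch was tested.

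Here, limma 3.58.1 in R 4.3.3 corrected the background (normexp, offset 50), normalized by loess, left out spots marked as outliers and averaged the spots of a probe. Of 58201 probes, 27503 passed a filter that asked for a signal well above background, in Cy3 or Cy5, on 3 or more of the 6 arrays. A mean per group was fitted over all 6 arrays with eBayes and tested two-sided, with Benjamini-Hochberg adjustment at 0.05. The number of arrays limits the precision. On simulated data with 200 probes shifted by 1 on the log2 scale in each line, 74.5% were recovered in the miR-338-5p comparison and 76% in the miR-421 comparison. Of the 397 that differed between the lines, 64% were recovered in the difference. Probes without a shift gave 14, 8 and 16 false calls in these comparisons, among 27470 simulated probes.

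The genes of the set and the pathway lists were chosen with earlier results of these data known. Of each list, up to the 3 largest rises and the 3 largest falls past the threshold were named per comparison, and the 5 genes nearest to E2F1. Alternatives changed the background correction, normalization, source of the ratio, filter, outlier spots, variance model, arrays and probes used, and the replicate number as a block. No annotation of hg19 exons and untranslated regions was used here.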

Additional observations from a re-analysis of the deposited data

Results flagged for a closer look

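CDKN1B lay above the control on every miR-338-5p array and below it on every miR-421 array by both of its probes, with differences between the lines of 1.22 and 0.67 on the log2 scale. Each difference missed the threshold in limma, with adjusted p of 0.056 and 0.079. CDK7 had the same signs on every array, with a difference of 0.75 (limma adjusted p = 0.10). By the probes that stand for them, MCM5 and CDT1, both needed to license replication origins, had the opposite signs on every array. Their differences were -0.39 and -0.52 (limma adjusted p = 0.22 and 0.26). Some of these values lay near 0, with MCM5 at -0.01 on miR-338-5p array 2 and CDT1 at 0.03 on miR-421 array 1. A second MCM5 probe was called in both lines, at -0.27 in the miR-338-5p line and 0.28 in the miR-421 line (limma adjusted p = 0.033 and 0.018), with a difference of -0.55 (0.077). Of all probes, 3.53% lay on opposite sides of 0 on every array.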

How the results depend on the processing

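Of 432 values recomputed for the genes of the set, 384 kept their direction and their side of the threshold, 24 lost a call, 9 gained one and 15 turned in sign, none of them called. The number of genes called in the miR-338-5p line fell from 2 to 1 with the background plainly subtracted, with the ratio of the image software and with the ratios of the authors' table, and to 0 with the group's own arrays only. In the miR-421 line it fell from 3 to 1 with either of those deposited ratios. With median centring it stayed at 2 and 3, but the genes were CCNE1 and CDK2, and CCNE2, CDK2 and CDKN2A. Leaving out 1 array gave 0 to 2 genes in the miR-338-5p line (0 without its replicate 1 or 3, and 1 when replicate 2 of miR-421 or its pool was left out), 1 to 4 in the miR-421 line (1 without its replicate 2) and 0 in the difference. The difference called 1 gene, CDKN1B, with no background correction or with a trended and robust variance, in place of 0. With the replicate number as a block it called 0 genes and 0 probes, with CDKN1B at 1.16 (limma adjusted p = 0.44). The numbers are not stated to pair samples, and same-numbered arrays correlated at -0.14 and -0.211 in their deviations from the group means.

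Values that turned were those of CCND1 in the miR-338-5p line, from -0.01 to 0.04 with the background subtracted, 0.02 with no correction, 0.05 with either deposited ratio, and from -0.14 to 0.07 as its arrays were left out, with 0.05 without replicate 2. Median centring turned CDK4 (-0.08), CDKN2A (-0.04) and E2F1 (-0.20) there. With 1 array left out, CDK4 ranged from -0.16 (without replicate 1) to 0.21 and E2F1 from -0.18 (without replicate 3) to 0.11 in that line. CDK4 ranged from -0.39 to 0.06 (without the pool) in the miR-421 line and from -0.04 (without the pool) to 0.41 in the difference, which was -0.06 with the block. The CDK2 difference ranged from -0.17 to 0.02 (without miR-421 replicate 1). The causes were not tested.

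Over the alternatives, 214 to 3650 probes were called in the miR-338-5p line (2476 as reported), 629 to 6961 in the miR-421 line (5950) and 0 to 89 in the difference (13). The share of the miR-338-5p calls that were higher was 42% as reported, 18% with median centring, 54.5% after plain subtraction, and 54.2% and 55.8% with the ratios of the image software and of the authors. CCND2 and the second CCNE2 probe were limited by signal near background.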
